A study of Mus musculus with 8 samples.

Results

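Chromatin accessibility was examined around 10 mouse genes of the paraxial mesoderm and its segmentation, namely Tbx6, Msgn1, Dll1, Dll3, Hes7, Meox1, Tcf15, Foxc1, Foxc2 and Pax3. A region belonged to a gene when the gene's span was the protein-coding span nearest to the region's midpoint in build mm10, with the midpoint inside it or within 100 kb of it. This rule found 91 of the 168842 regions of the deposited ATAC-seq table, each 401 bp wide. Pax3 and Meox1 had 19 regions each, Dll1 had 18, Foxc1 had 15, Tcf15 had 8, Hes7, Msgn1 and Dll3 had 3 each, Foxc2 had 2 and Tbx6 had 1. The genes were chosen by name and not by a measured value, but with earlier results of these data known.

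ATAC-seq uses the Tn5 transposase to cut and tag open chromatin, so the reads in a region measure how accessible it is. The 8 libraries came from mouse embryonic stem cells differentiated for 4 days as embryoid bodies, with 50000 sorted live cells per library. OE SP libraries hold PDGFRalpha-FLK1+ cells, sorted from the iETV2 line, given doxycycline at 2 µg/ml from day 2.5 to induce Etv2, an ETS factor that specifies blood and endothelial progenitors. WT SP libraries hold PDGFRalpha-FLK1+ cells, sorted from the wildtype A2lox.Cre line, with no doxycycline listed. KO DP libraries hold PDGFRalpha+FLK1+ cells, sorted from an Etv2 knockout line, and WT DP libraries hold PDGFRalpha+FLK1+ cells from A2lox.Cre. Each group has 2 libraries. FLK1, encoded by Kdr, is a VEGF receptor of early mesoderm, and PDGFRalpha is a receptor that paraxial and cardiac mesoderm keep. Each genotype is 1 line and only the iETV2 line received doxycycline, so the effects of Etv2, of the line and of doxycycline cannot be told apart. Separate cultures are not stated for the 2 libraries of any group, so the p-values reflect the spread between these samples alone, and that spread may be technical.

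Paraxial mesoderm forms on both sides of the neural tube and is cut into somites, the blocks that give rise to vertebrae, skeletal muscle and dermis. In the presomitic mesoderm a segmentation clock of Notch, Wnt and FGF signals oscillates, and cells that leave it form somites under the control of T-box, forkhead and bHLH factors. Tbx6 is a T-box factor that commits progenitors to paraxial rather than neural fate, and Msgn1 is a bHLH factor of the presomitic mesoderm. Dll1 and Dll3 are Notch ligands of the clock, of which Dll3 acts mainly as an inhibitor within the cell that makes it, and Hes7 is the oscillating repressor at the core of the clock. Meox1 is a homeobox factor of somites, Tcf15 (also called Paraxis) is a bHLH factor needed for somites to become epithelial, Foxc1 and Foxc2 are forkhead factors of somites and vessels, and Pax3 is a paired-box factor of the dermomyotome and neural crest.

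Of the members with a promoter window in the RefSeq table (build GRCm38.p6, the assembly of mm10), those of Msgn1 and Foxc1 lay wholly inside a region, so their sequence is the sequence whose accessibility was measured. They are shown because the start of Msgn1 fell in each of the 3 comparisons below, while the start of Foxc1 passed the test in none of them. The Msgn1 window is chr12:11208899-11209198 on the minus strand, and capitals mark a TCF/LEF match at bases 48 to 54 (ATCAAAG) and an RBPJ match at bases 137 to 143 (TTCCCAC), counted from its 5′ end. The Foxc1 window is chr13:31806396-31806695 on the plus strand and has no capitals because none of the searched letters matched.
Msgn1 window: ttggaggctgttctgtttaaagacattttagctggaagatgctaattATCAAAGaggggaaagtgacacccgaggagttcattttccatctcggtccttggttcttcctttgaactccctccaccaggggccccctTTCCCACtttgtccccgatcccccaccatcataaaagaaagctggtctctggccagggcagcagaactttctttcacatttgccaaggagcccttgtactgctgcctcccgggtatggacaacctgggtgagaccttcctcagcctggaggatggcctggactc
Foxc1 window: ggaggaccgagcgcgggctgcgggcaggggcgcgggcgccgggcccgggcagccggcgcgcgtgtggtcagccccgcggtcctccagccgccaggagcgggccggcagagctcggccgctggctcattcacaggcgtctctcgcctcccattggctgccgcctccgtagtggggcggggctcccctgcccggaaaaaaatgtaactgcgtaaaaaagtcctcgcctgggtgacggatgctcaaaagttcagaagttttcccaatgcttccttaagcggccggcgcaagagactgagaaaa

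Motifs were searched on both strands in these and in 32851 promoter windows of the same length. The letters CTTTGAT, for the TCF/LEF effectors of Wnt signals, were held by 3.73% of all windows. The letters GTGGGAA, for RBPJ, the DNA-binding partner of Notch, were held by 6.38%. The letters AGGTGTNA stood for T-box factors and were held by 3.03%, those of the ETS family, spelled CCGGAAG, by 8.86%, and those of GATA factors, spelled AGATAA, by 11.2%. The Msgn1 window had a GC content of 52.3% and 4 CpG sites, against a median of 52.7% and 7 CpG sites over all windows. The Foxc1 window was richer in both, with 67.3% GC and 32 CpG sites. A match is only a description of the letters. The windows of Tbx6, Dll3 and Hes7 overlapped no region of the table, and that of Hes7 held 1 RBPJ match.

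The recovered reads in regions were 12477601 to 18853733 per library, with medians of 27 to 42 reads per region. The chi-square per degree of freedom between replicates was 4.32 in OE SP but only 1.21 in WT SP, 1.22 in KO DP and 1.15 in WT DP, where a value of 1 is counting noise. In OE SP, 8 of the 91 regions (8.79%) differed by more than 2-fold between the 2 libraries, close to the 9.22% of all regions tested. The Etv2 locus matched the KO label: the region at chr7:30634628-30635028 had 0.840 and 0 normalized reads in KO DP, against 563 and 611 in WT DP. All values below are normalized reads per region as deposited. A log2 change is the difference of group means of log2(value + 5), and a region is called, or is said to rise or fall, when the limma p adjusted over all 167573 regions tested is below 0.05. All 91 regions passed the filter on low values. Calls rest on the same libraries as the printed values, so a lack of overlap at a called region is no further support. WT DP serves 2 of the 3 comparisons and so does WT SP, so the comparisons are not independent of each other.

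**Figure D1:**
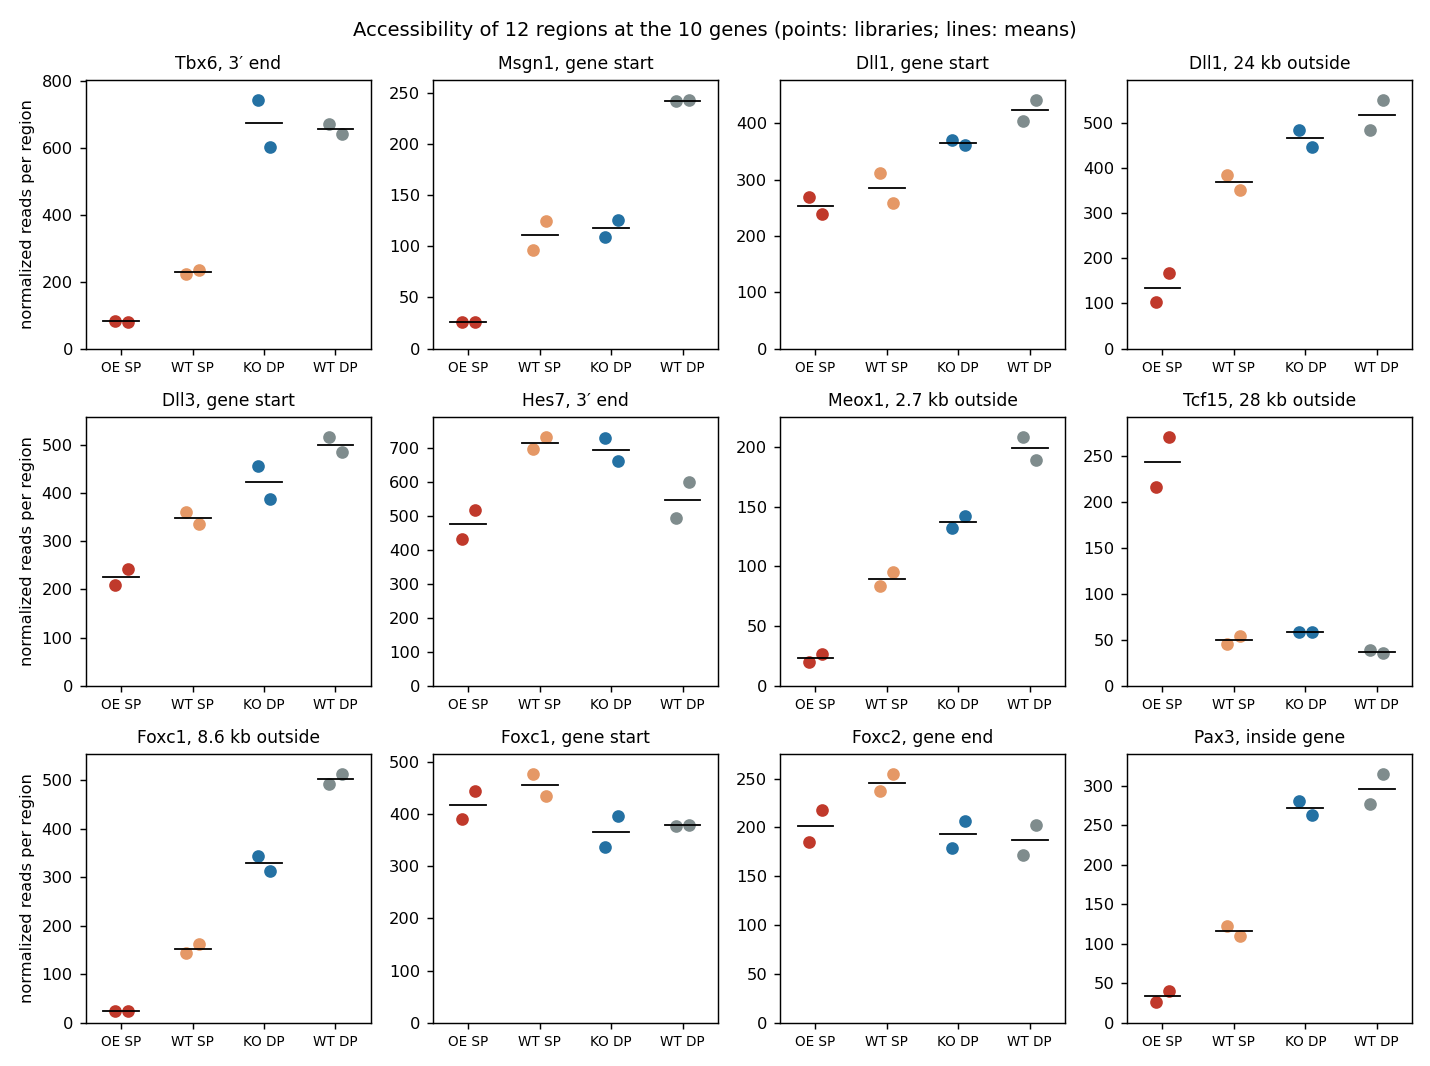
Normalized reads per region in each of the 8 libraries for 12 regions of the 10 genes, with OE SP, WT SP, KO DP and WT DP along the x axis, a point for each library and a line at each group mean. The Tbx6 region has 81.7 and 80.1 in OE SP and 224 and 234 in WT SP, while the Tcf15 region stands at 216 and 271 in OE SP and at 58.2 or less in the other libraries.

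The first comparison asked how FLK1+ cells without PDGFRalpha differ from FLK1+ cells that keep it. In WT SP, set against WT DP, 18 of the 91 regions fell (19.8%) and 3 rose (3.30%). Among all regions tested, 14.3% were called, 8.12% as falls and 6.2% as rises. Falls were found at 7 of the 10 genes, at Tbx6, Msgn1, Dll1, Dll3, Meox1, Foxc1 and Pax3. Rises were found at Tcf15, Dll1 and Meox1, and no region of Hes7 or Foxc2 was called, though the compared groups alone gave 2 rises at Hes7 and 1 at Foxc2. The median log2 change of the 91 regions was -0.04, against 0.11 for all regions. Fewer cells with an open region and less opening in each cell cannot be told apart in these pooled cells.

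The only Tbx6 region and 1 of the 3 Msgn1 regions were less accessible in WT SP. The Tbx6 region, chr7:126785094-126785494, lies 254 bases inside the 3′ end of the gene. It had 224 and 234 normalized reads in WT SP, against 669.8 and 640.4 in WT DP. The groups were far apart, and the log2 change was -1.50 (SE 0.16, adjusted p = 0.000294). The region over the Msgn1 start, chr12:11208831-11209231, whose sequence is given above, had 96.7 and 125 in WT SP, against 242 and 243 in WT DP. Its log2 change was -1.11 (SE 0.19, adjusted p = 0.00331), with no overlap between the groups. The other Msgn1 regions were near equal in both groups, with log2 changes of -0.08 and -0.04. The Msgn1 call was lost without WT DP replicate 2 (adjusted p = 0.0514) and without WT SP replicate 1 (adjusted p = 0.0631).

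Among the Notch ligands, Dll1 had 3 falls at or beside the gene and 1 rise far from it. The strongest fall was at chr17:15365989-15366389, 1165 bases beyond the 3′ end, with 6.11 and 2.97 in WT SP, against 46.6 and 50.3 in WT DP. WT SP was near 0 there, and the log2 change was -2.50 (SE 0.28, adjusted p = 0.000373). The region at the Dll1 start, chr17:15375947-15376347, had 311 and 259 in WT SP, against 404 and 442 in WT DP. The groups did not overlap, but the log2 change was small at -0.57 (SE 0.16, adjusted p = 0.0343), and no fit without 1 library kept the call, with adjusted p of 0.148 and 0.247 without WT DP replicates 1 and 2, and 0.0951 and 0.267 without WT SP replicates 1 and 2. The rise was at chr17:15325884-15326284, 41270 bases beyond the 3′ end, with 59.0 and 63.4 in WT SP, against 22.3 and 25.1 in WT DP, a log2 change of 1.21 (SE 0.23, adjusted p = 0.00505) that was lost without WT DP replicate 1 (adjusted p = 0.0618) and without WT SP replicate 2 (adjusted p = 0.0584).

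The highest Dll1 region, chr17:15343045-15343445, had 385 and 351 in WT SP, against 484 and 551 in WT DP, and was not called (log2 change -0.49, adjusted p = 0.134). At Dll3 the region 576 bases before the gene start, chr7:28302161-28302561, had 360.3 and 336 in WT SP, against 517 and 485 in WT DP. The groups did not overlap, but the log2 change of -0.52 (SE 0.16, adjusted p = 0.0462) was lost in each fit without 1 library, with adjusted p of 0.274 and 0.191 without WT DP replicates 1 and 2, and 0.178 and 0.251 without WT SP replicates 1 and 2. The highest Hes7 region, chr11:69124167-69124567, lies 313 bases beyond the 3′ end and had 698 and 734 in WT SP, against 493 and 601 in WT DP. WT SP was higher in both libraries, but the change did not pass the test (log2 change 0.39, adjusted p = 0.119).

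The somite factors Meox1 and Tcf15 gave changes in both directions. At Meox1 the fall of lowest p was at chr11:101896869-101897269, 2715 bases beyond the high-coordinate end of the gene, with 83.5 and 95.2 in WT SP, against 209 and 189.5 in WT DP. WT SP had less than the lower WT DP library in both, and the log2 change was -1.12 (SE 0.20, adjusted p = 0.00355). The call was lost without WT DP replicate 1 (adjusted p = 0.0592) and without WT SP replicate 1 (adjusted p = 0.0587). Inside the gene, chr11:101881485-101881885 had 351 and 342 in WT SP, against 232 and 181 in WT DP, and rose by 0.74 on the log2 scale (SE 0.22, adjusted p = 0.0402). At Tcf15 the region 868 bases beyond the low-coordinate end, chr2:152141988-152142388, had 224 and 190.3 in WT SP, against 119 and 125 in WT DP, a log2 change of 0.73 (SE 0.17, adjusted p = 0.0140). Neither rise kept its call in any fit without 1 library. For Meox1 the adjusted p was 0.100 and 0.296 without WT DP replicates 1 and 2, and 0.209 and 0.182 without WT SP replicates 1 and 2. For Tcf15 it was 0.127 and 0.103 without WT DP replicates 1 and 2, and 0.157 and 0.0615 without WT SP replicates 1 and 2.

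Foxc1 had the most falls, 6 of its 15 regions, all upstream of the gene, and 3 to 5 falls in the fits without 1 library. The fall of lowest p was at chr13:31797876-31798276, 8570 bases upstream, with 145 and 162 in WT SP, against 492 and 513 in WT DP. The groups were far apart, and the log2 change was -1.68 (SE 0.17, adjusted p = 0.000245). At chr13:31760230-31760630, 46216 bases upstream, WT SP had 138 and 178, against 515 and 548 in WT DP. That fall was as large (log2 change -1.73, SE 0.34, adjusted p = 0.00691). Its larger SE comes from the fit of all 4 groups and was the same in OE SP against WT SP. The OE SP libraries, outside this comparison, stood at 27.0 and 82.8 there. Omitting WT SP replicate 1 cost the region its call (log2 change -1.55). Omitting either library of WT DP did so too, with log2 changes of -1.77 for replicate 1 and -1.68 for replicate 2. The region over the Foxc1 start, chr13:31806363-31806763, whose sequence is given above, had 476 and 434 in WT SP, against 377 and 379 in WT DP, and was not called (log2 change 0.26, adjusted p = 0.273). The 6 falls thus lay upstream, while the start of the gene did not pass the test. Foxc2, the paralog, had no call, and its highest region, chr8:121115950-121116350, had 237 and 255 in WT SP, against 172 and 202 in WT DP.

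Pax3 had 4 falls among its 19 regions, all inside the gene, and 1 fall in each fit without 1 library of WT SP or WT DP. The fall of lowest p was at chr1:78141590-78141990, with 122 and 110.0 in WT SP, against 277 and 315 in WT DP. The groups did not overlap, and the log2 change was -1.31 (SE 0.20, adjusted p = 0.00173). The region at the high-coordinate end of the gene, chr1:78196777-78197177, had 251 and 239 in WT SP, against 263 and 279 in WT DP, and was not called (log2 change -0.14, adjusted p = 0.585).

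Falls were counted more often near the genes, a difference that was not tested. Inside a gene or within 10 kb of it, 14 of 49 regions fell (28.6%), and beyond 10 kb 4 of 42 fell (9.52%). Among all regions with a gene within 100 kb, the shares were 6.88% and 9.15%. Beside the 0.11 of all regions, the median log2 change of the other regions within 2 Mb was lowest around Msgn1, at -0.04, where 33 of 224 fell, and was 0.03 around Pax3, where 25 of 193 fell. Leaving out 1 library lowered the number of calls among the members and among all regions. In those fits 1 group has a single library, which is assumed to vary like the others. Of the 21 calls, 6 were kept in each of these fits, at Tbx6, Dll1 (the region 1165 bases beyond the 3′ end), Pax3 (chr1:78141590-78141990) and 3 upstream Foxc1 regions.

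**Figure D2:**
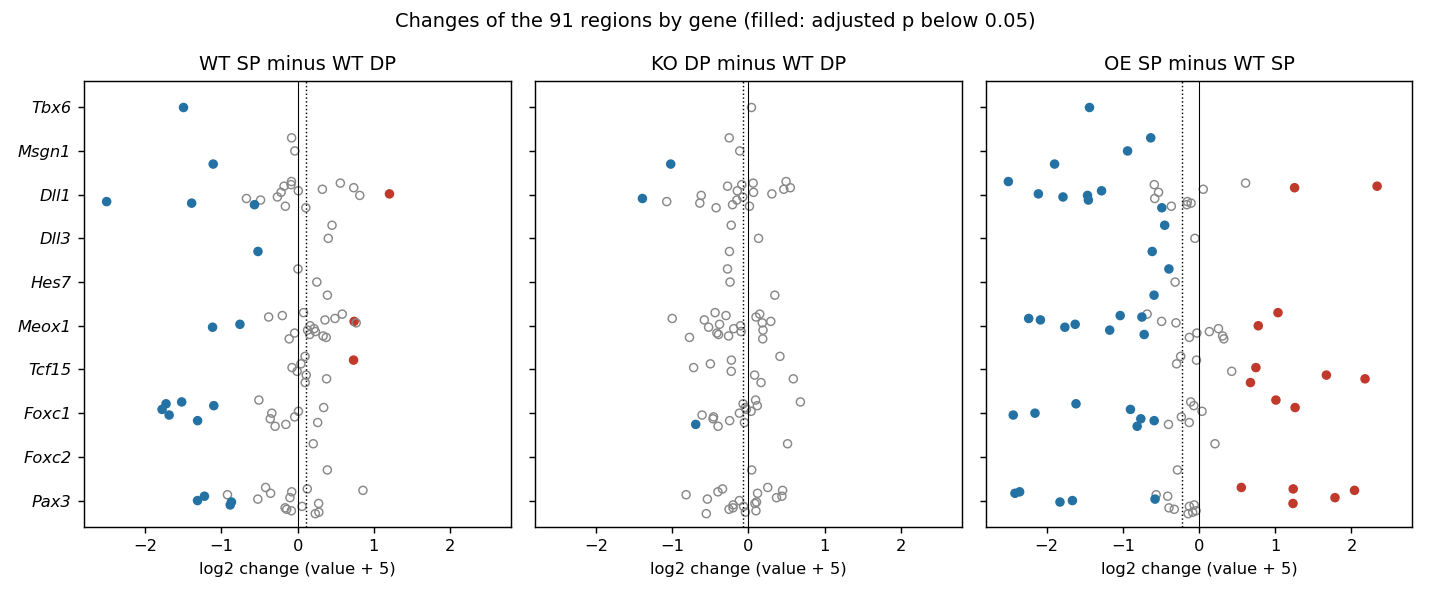
Log2 change of log2(value + 5) for each of the 91 regions (x axis) by gene (rows) in WT SP minus WT DP, KO DP minus WT DP and OE SP minus WT SP. Filled points have an adjusted p below 0.05, red for rises and blue for falls, and the dotted line marks the median of all regions, which is 0.11, -0.07 and -0.22 in the 3 panels. The 18 falls of the first panel spread over 7 genes, the middle panel has 3, and Tcf15 is the only gene whose calls in the third panel are all rises as deposited, joined by Foxc2 with 1 rise under median-of-ratios scaling.

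The second comparison asked what the loss of Etv2 changes in cells that keep both receptors. In KO DP, set against WT DP, 3 of the 91 regions fell (3.30%) and none rose. Among all regions tested, 3.92% were called, 2.21% as falls and 1.72% as rises, so the members were called at about the background rate. At an unadjusted p below 0.05, limma had 5 rises and 18 falls among the 91 members, and 32475 of all regions (19.4%) in either direction. edgeR on the recovered reads called 2 rises and 6 falls at an adjusted p below 0.05, beside 3.62% rises and 2.78% falls among all regions, and DESeq2 called 0 and 1, beside 1.23% and 0.819%. The median log2 change of the 91 regions was -0.12, against -0.07 for all regions.

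The 3 falls were at Msgn1, Dll1 and Foxc1. The region over the Msgn1 start had 109 and 126 in KO DP, against 242 and 243 in WT DP. Both KO DP libraries had about the level of WT SP, and the log2 change was -1.02 (SE 0.19, adjusted p = 0.0125). At Dll1, chr17:15337806-15338206, 29348 bases beyond the 3′ end, had 11.8 and 11.9 in KO DP, against 36.9 and 41.3 in WT DP, a log2 change of -1.39 (SE 0.27, adjusted p = 0.0139). At Foxc1, chr13:31808083-31808483 inside the gene had 159 and 163 in KO DP, against 269 and 256 in WT DP, a log2 change of -0.69 (SE 0.17, adjusted p = 0.0418). The groups did not overlap at these regions, but the regions were picked by their calls, so this is no further support. All 3 calls were lost in each fit without 1 library of KO DP or WT DP, where the lowest adjusted p was 0.108 at Msgn1, 0.120 at Dll1 and 0.215 at Foxc1. The Foxc1 call was also lost under both rescalings.

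The Tbx6 region had 744 and 601 in KO DP, against 669.8 and 640.4 in WT DP, so the groups overlapped and the log2 change was 0.03 (SE 0.16, adjusted p = 0.944). The Foxc1 region 8570 bases upstream had 343 and 314 in KO DP, against 492 and 513 in WT DP, with no overlap, but the log2 change of -0.61 (SE 0.17) missed the threshold (adjusted p = 0.0645). So did the Dll1 region 1165 bases beyond the 3′ end, with 18.5 and 22.6 in KO DP, against 46.6 and 50.3 in WT DP (log2 change -1.07, SE 0.28, adjusted p = 0.0560). At Hes7, Dll3, Meox1, Tcf15, Foxc2 and Pax3 limma called no region on the values as deposited, but edgeR called 1 fall at Meox1 and 1 rise each at Hes7 and Foxc2, the scaling on the 10000 highest regions called 1 rise each at Hes7 and Foxc2, and the compared groups alone gave calls at Hes7, Meox1, Tcf15, Foxc2 and Pax3. Around Foxc2, the other regions within 2 Mb had a median log2 change of 0.09, higher than the -0.07 of all regions, and around Tcf15 it was -0.17. What part those stretches had in the members' values was not tested.

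**Figure D3:**
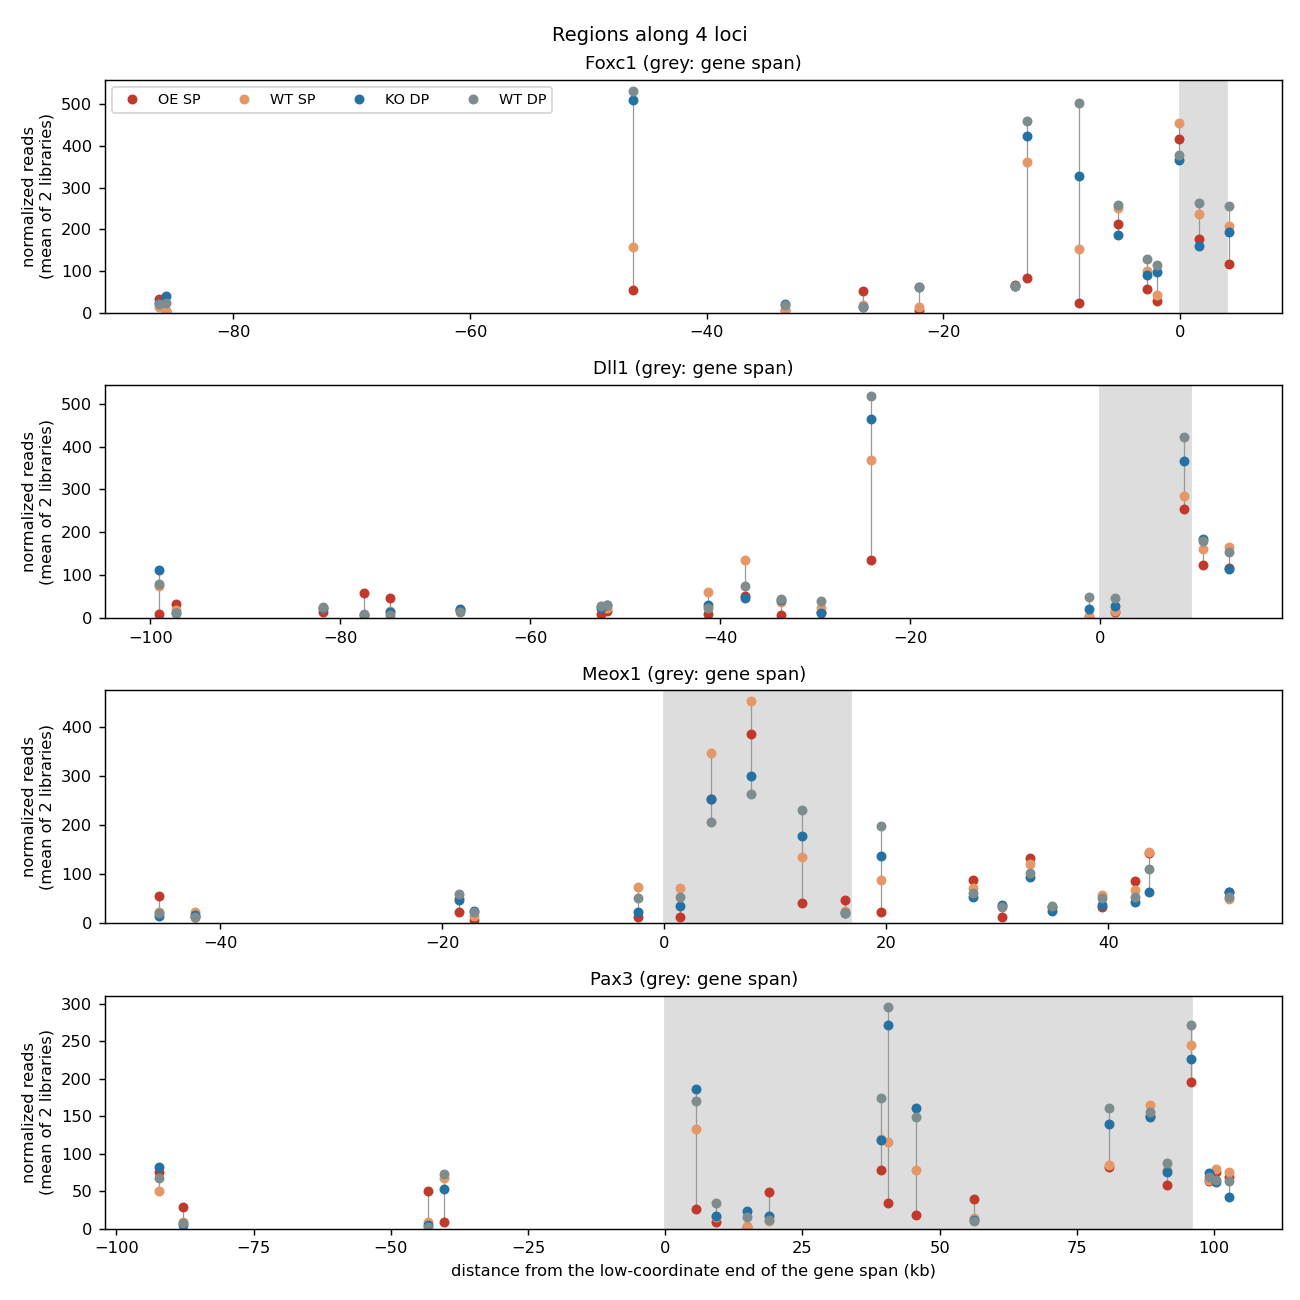
Mean normalized reads of the 2 libraries of each group (y axis) for each region of Foxc1, Dll1, Meox1 and Pax3 by distance from the low-coordinate end of the gene span in kb (x axis), with the gene span in grey and a thin line joining the group means of a region. At the Foxc1 start the 4 groups lie within 336 to 476 in all libraries, while 8570 bases upstream OE SP stands at 23.3 and 25 and WT DP at 492 and 513.

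The third comparison asked what induced Etv2 changes in FLK1+ cells without PDGFRalpha. In OE SP, set against WT SP, 35 of the 91 regions fell (38.5%), 15 rose (16.5%) and 41 were not called. Among all regions tested, 48.5% were called, 31.9% as falls and 16.6% as rises, so the rises were at about the background rate and the falls above it by an amount that was not tested. Tbx6, Msgn1, Dll3 and Hes7 had falls and no rises, Tcf15 had rises and no falls, Dll1, Meox1, Foxc1 and Pax3 had both, and Foxc2 had no call. The median log2 change of the 91 regions was -0.32, against -0.22 for all regions. With median-of-ratios scaling the median of all regions was -0.00, and the members had 27 falls and 19 rises, while all regions had 42486 falls and 39094 rises instead of 53530 and 27777. Scaled on the 10000 highest regions, the members had 28 falls and 16 rises, where all regions had 27.1% falls and 21.2% rises. The genes kept these directions under both scalings, except that Foxc2 had 1 rise under median-of-ratios scaling.

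The Tbx6 region had 81.7 and 80.1 in OE SP, against 224 and 234 in WT SP. The 2 OE SP libraries were close to each other and well below WT SP, and the log2 change was -1.44 (SE 0.16, adjusted p = 2.94e-05). The region over the Msgn1 start had 25.5 and 26.3 in OE SP, against 96.7 and 125 in WT SP, a log2 change of -1.90 (SE 0.19, adjusted p = 1.82e-05). All 3 Msgn1 regions fell. The other Msgn1 falls were smaller, at chr12:11196223-11196623 (log2 change -0.63, adjusted p = 0.0101) and chr12:11204057-11204457 (log2 change -0.94, adjusted p = 0.0249). The first was lost in DESeq2 and without WT SP replicate 1 (adjusted p = 0.0783), and the second under median-of-ratios scaling, in the compared groups alone, in DESeq2 and without WT SP replicate 1 (adjusted p = 0.0904), WT SP replicate 2 (adjusted p = 0.114) or OE SP replicate 1 (adjusted p = 0.221).

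At Dll1, 7 regions fell and 2 rose. The highest, chr17:15343045-15343445, 24109 bases beyond the 3′ end, had 103 and 167 in OE SP, against 385 and 351 in WT SP, a log2 change of -1.45 (SE 0.20, adjusted p = 0.000142). The region 41270 bases beyond the 3′ end, which was higher in WT SP than in WT DP, had 10.2 and 10.5 in OE SP, against 59.0 and 63.4 in WT SP, a log2 change of -2.11 (SE 0.23, adjusted p = 2.57e-05). At both, the groups were far apart. The rise of lowest p was at chr17:15289592-15289992, 77562 bases beyond the 3′ end, with 43.0 and 74.9 in OE SP, against 5.09 and 9.91 in WT SP, a log2 change of 2.34 (SE 0.32, adjusted p = 0.000108). The means of the other groups were below 10 there, so this region passed the filter through OE SP. The region at the Dll1 start had 268 and 239 in OE SP, against 311 and 259 in WT SP, so the groups overlapped and it was not called (log2 change -0.16, adjusted p = 0.431).

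Dll3 and Hes7 fell less. The Dll3 region 576 bases before the gene start had 209 and 243 in OE SP, against 360.3 and 336 in WT SP, a log2 change of -0.61 (SE 0.16, adjusted p = 0.00666) that was lost without WT SP replicate 1 (adjusted p = 0.0653) and in DESeq2. The Hes7 region beyond the 3′ end had 433 and 519 in OE SP, against 698 and 734 in WT SP, a log2 change of -0.59 (SE 0.16, adjusted p = 0.00832) that was lost without WT SP replicate 2 (adjusted p = 0.0726) and in DESeq2. In neither did the groups overlap. The Hes7 region 105 bases before the gene span, chr11:69118601-69119001, had 198 and 218 in OE SP, against 272 and 278 in WT SP (log2 change -0.40, SE 0.15, adjusted p = 0.0487). That call was lost without WT SP replicate 1 (adjusted p = 0.156) or 2 (adjusted p = 0.188) and under both rescalings.

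Meox1 had 8 falls and 2 rises. Without WT SP replicate 2, 4 of the falls were left, and those at chr11:101858817-101859217 (adjusted p = 0.0765), chr11:101860173-101860573 (adjusted p = 0.177), chr11:101907768-101908168 (adjusted p = 0.0607) and chr11:101916745-101917145 (adjusted p = 0.100) were lost. The same 4 were lost in DESeq2, and without OE SP replicate 2 there were 12 falls. The region 2715 bases beyond the high-coordinate end had 19.7 and 26.3 in OE SP, against 83.5 and 95.2 in WT SP, a log2 change of -1.76 (SE 0.20, adjusted p = 3.14e-05). Within the gene, chr11:101878713-101879113 had 8.02 and 19.7 in OE SP, against 64.1 and 78.3 in WT SP (log2 change -2.08, SE 0.29, adjusted p = 0.000121). The highest Meox1 region, chr11:101885138-101885538, also within the gene, had 259.7 and 512 in OE SP, against 467 and 436 in WT SP. The OE SP libraries stood on either side of WT SP there, and the region was not called (log2 change -0.30, adjusted p = 0.334). Of the rises, chr11:101893594-101893994 had 42.3 and 51.2 in OE SP, against 26.5 and 23.8 in WT SP (log2 change 0.78, SE 0.25, adjusted p = 0.0226), and lost its call without WT SP replicate 1 (adjusted p = 0.0690), WT SP replicate 2 (adjusted p = 0.116) or OE SP replicate 2 (adjusted p = 0.0664). The other, chr11:101831772-101832172, lost its call without WT SP replicate 1 (adjusted p = 0.133), WT SP replicate 2 (adjusted p = 0.0583) or OE SP replicate 1 (adjusted p = 0.209).

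Tcf15 was the 1 gene whose calls were all rises in the main fit, in 4 of its 8 regions, and under median-of-ratios scaling Foxc2, with 1 rise, joined it. Without OE SP replicate 2, Tcf15 had calls in both directions, with a fall at its highest region, and Foxc2 had a fall and no rise. Without WT SP replicate 2 only 2 of the 4 rises were left: chr2:152150253-152150653 had an adjusted p of 0.161 and chr2:152180389-152180789 one of 0.0595. The first was also lost without OE SP replicate 2 (adjusted p = 0.0919), and the second without WT SP replicate 1 (adjusted p = 0.230) or OE SP replicate 1 (adjusted p = 0.169) and in DESeq2, and both in the fit of the compared groups alone. The rise of lowest p was at chr2:152177150-152177550, 28253 bases beyond the high-coordinate end of the gene, with 216 and 271 in OE SP, against 45.8 and 53.5 in WT SP. OE SP was well above WT SP, and the log2 change was 2.18 (SE 0.20, adjusted p = 1.08e-05). KO DP had 57.9 and 58.2 there, against 38.8 and 35.0 in WT DP, so it was high in OE SP and low in the other groups. At chr2:152167734-152168134, OE SP had 49.6 and 39.4, against 9.16 and 11.9 in WT SP, a log2 change of 1.67 (SE 0.32, adjusted p = 0.00112). The highest Tcf15 region, chr2:152143309-152143709 inside the gene, had 250.2 and 252 in OE SP, against 323 and 296 in WT SP, and was not called (log2 change -0.29, adjusted p = 0.132). The region 868 bases beyond the low-coordinate end, higher in WT SP than in WT DP, had 198 and 205 in OE SP, against 224 and 190.3 in WT SP, and was not called either (log2 change -0.03, adjusted p = 0.890).

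At Foxc1, 7 regions fell and 2 rose. The region 8570 bases upstream had 23.3 and 25 in OE SP, against 145 and 162 in WT SP, and had the lowest adjusted p of the 91 regions in this comparison (log2 change -2.44, SE 0.17, adjusted p = 3.66e-06). Another upstream region, chr13:31793496-31793896, had 53.3 and 112 in OE SP, against 353 and 369.8 in WT SP, a log2 change of -2.15 (SE 0.25, adjusted p = 4.43e-05). The region over the Foxc1 start had 390.3 and 443 in OE SP, against 476 and 434 in WT SP, so the groups overlapped and it was not called (log2 change -0.13, adjusted p = 0.523). The stronger rise was at chr13:31779611-31780011, 26835 bases upstream, with 50.3 and 55.2 in OE SP, against 19.3 and 18.8 in WT SP (log2 change 1.26, SE 0.24, adjusted p = 0.00115). Foxc2 had 185 and 218 in its highest region in OE SP, against 237 and 255 in WT SP (log2 change -0.28, adjusted p = 0.197).

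Pax3 had 5 falls and 5 rises, and without OE SP replicate 1 it had 8 falls. The fall of lowest p was at chr1:78060824-78061224, 40243 bases beyond the low-coordinate end of the gene, with 10.9 and 7.88 in OE SP, against 66.2 and 70.4 in WT SP (log2 change -2.35, SE 0.22, adjusted p = 1.16e-05). On the side away from the gene and next to it in the table, the rise of lowest p, chr1:78057907-78058307, had 41.6 and 59.1 in OE SP, against 6.11 and 10.9 in WT SP (log2 change 2.04, SE 0.31, adjusted p = 0.000255). These neighbours moved in opposite directions, but the rising one passed the filter on a mean of 10 through OE SP. The means of the other groups were below 10 there, so its low WT SP level was part of its choice. The region chr1:78141590-78141990 inside the gene had 27.0 and 40.7 in OE SP, against 122 and 110.0 in WT SP (log2 change -1.66, SE 0.20, adjusted p = 5.26e-05). At the high-coordinate end of the gene, OE SP had 214 and 177, against 251 and 239 in WT SP, which was not called (log2 change -0.32, adjusted p = 0.117).

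Over the 15 rises in OE SP the WT SP mean lay between 7.5 and 53.3, with a median of 17.1, and over the 35 falls it lay between 14.6 and 716, with a median of 111. Over all regions tested the medians were 17.5 for rises and 51.2 for falls. The change is computed with the same WT SP libraries, so level and change are not independent. In 3 of the rises, at Dll1 (chr17:15289592-15289992) and Pax3 (chr1:78013269-78013669 and chr1:78057907-78058307), the means of WT SP, KO DP and WT DP were all below 10, so these regions passed the filter on a mean of 10 through OE SP and a low WT SP level was part of their choice. Beyond 10 kb 11 of 42 regions rose (26.2%), and inside a gene or within 10 kb 4 of 49 rose (8.16%). Among all regions with a gene within 100 kb these shares were 18.6% and 15.4%. The share of falls was 35.7% beyond 10 kb and 40.8% nearer, against 34.2% and 30.3% of all such regions. Within 1 kb of a gene end, 6 of 13 member regions fell and 1 rose, while 20.6% of gene-end regions in the table fell and 6.76% rose.

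**Figure D4:**
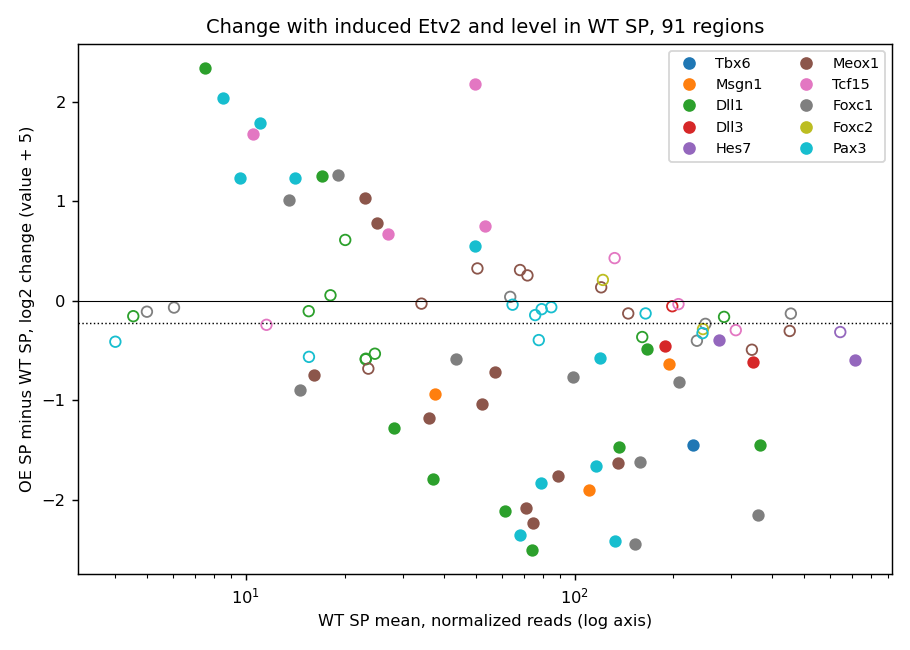
Log2 change in OE SP minus WT SP (y axis) against the WT SP mean in normalized reads on a log axis (x axis) for the 91 regions, coloured by gene, with filled points for regions with an adjusted p below 0.05 and a dotted line at the median of all regions, -0.22. The 15 rises all have a WT SP mean of 53.3 or less, and the 35 falls reach 716.

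Of the 50 calls, 28 were kept in each fit without 1 library of OE SP or WT SP. Leaving out an OE SP library raised the number of calls among the members and among all regions. Leaving out a WT SP library lowered both. Without an OE SP library the spread came from the other groups alone. Replicates differed most in OE SP, with a chi-square per degree of freedom of 4.32. Calls kept in those fits are therefore no check on the noise between the OE SP libraries. Beside the -0.22 of all regions, the other regions within 2 Mb had a median log2 change of -0.45 around Msgn1, -0.46 around Pax3 and -0.37 around Foxc2. What part these surroundings had in the members' values was not tested.

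Taking each gene's regions together, the summed normalized reads of Tbx6, Msgn1, Dll1, Foxc1 and Pax3 were lower in both OE SP libraries than in both WT SP libraries, and in both WT SP libraries than in both WT DP libraries. OE SP had Foxc1 sums of 1282 and 1385, against 2084 and 2088 in WT SP, and KO DP had sums of 2650 and 2506, against 3102 and 3082 in WT DP. For Tcf15 the order differed, with 1006 and 1138 in OE SP, against 816 and 786 in WT SP, while KO DP had 597 and 550.3, against 716 and 671 in WT DP. For Hes7 WT SP was highest, with 1080 and 1331 in OE SP, against 1608 and 1660.5 in WT SP, while KO DP had 1438 and 1317, against 1295 and 1425 in WT DP. A sum is dominated by the highest regions of the gene and was not tested.

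Among 13148 other genes with at least 3 regions, the summed profile over the 8 libraries most like that of Tbx6 was that of Lrit3 (Pearson r = 0.999), then Trat1 (0.999) and Itga8 (0.998). For Msgn1 these were Gpc6 (0.997), Slamf6 (0.996) and Vti1a (0.996). The 8 libraries fall into 4 groups and share their scaling, and 712 genes passed an r of 0.9 with Tbx6 and 961 with Msgn1, so such a likeness is common in these data.

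A list of 50 other segmentation and somite genes, with Notch, Wnt and FGF components of the clock and later somite factors, had 827 regions, of which 823 were tested. In WT SP against WT DP, 101 fell (12.3%) and 43 rose (5.22%). Calls were fewer without 1 library, in this list and among all regions. The compared groups alone gave 190 falls and 156 rises, where all regions had 15.5% and 22.4%. Scaling on the 10000 highest regions gave 162 and 27, where all regions had 13.3% and 4.01%. DESeq2 gave 78 and 22, where all regions had 5.62% and 2.78%. At Notch1, the receptor of the Dll ligands, chr2:26486910-26487310 had 171 and 172 in WT SP, against 583 and 596 in WT DP (log2 change -1.75, SE 0.15, adjusted p = 0.000176). Lef1, a Wnt effector, fell by 1.93 on the log2 scale in its region of lowest p (SE 0.17, adjusted p = 0.000176). The FGF feedback inhibitors Dusp4 and Spry2 each had a region that rose, by 1.75 (SE 0.24, adjusted p = 0.000913) and 1.82 (SE 0.27, adjusted p = 0.00148). These regions lay 81429 and 70470 bases outside the gene spans.

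In KO DP against WT DP, 26 of the 823 regions fell (3.16%) and 14 rose (1.70%), near the shares among all regions. Calls were again fewer without 1 library, in this list and among all regions. The compared groups alone gave 130 falls and 75 rises, where all regions had 13.1% and 8.89%. The rises numbered 9 with a pseudocount of 1, 25 and 33 under the rescalings and 29 in edgeR. Among all regions the rises were 1.14% with that pseudocount, 2.57% under median-of-ratios scaling, 3.68% on the 10000 highest regions and 3.62% in edgeR. The falls numbered 15 with a pseudocount of 1, 15 with the replicate block and 9 in DESeq2, where all regions had 1.58%, 1.85% and 0.819%. The Wnt feedback gene Axin2 had a region with 84.8 and 78.4 in KO DP, against 209 and 251 in WT DP (log2 change -1.43, SE 0.19, adjusted p = 0.00144), a call lost without WT DP replicate 2 (adjusted p = 0.0539). Dkk1, a secreted Wnt inhibitor, had a region that rose by 1.36 (SE 0.23, adjusted p = 0.00757), a call lost without WT DP replicate 1 (adjusted p = 0.0610), WT DP replicate 2 (adjusted p = 0.120), KO DP replicate 1 (adjusted p = 0.104) or KO DP replicate 2 (adjusted p = 0.102). In OE SP against WT SP, 340 fell (41.3%) and 98 rose (11.9%), with a median log2 change of -0.39 against -0.22 for all regions. DESeq2 gave 186 falls there, where 17.2% of all regions fell. Each fit without 1 library stayed within 1.5 times the counts. At Fgf8, the FGF ligand of the presomitic mesoderm, chr19:45725636-45726036 had 30.6 and 31.5 in OE SP, against 215 and 208 in WT SP (log2 change -2.58, SE 0.17, adjusted p = 3.27e-06). That region lay 10655 bases outside the gene span. Efnb2, an ephrin of somite boundaries and of arteries, had a region with 163 and 173 in OE SP, against 25.4 and 23.8 in WT SP (log2 change 2.55, SE 0.23, adjusted p = 1.03e-05).

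Genes of other lineages had calls too. In OE SP against WT SP, the 308 tested regions of 15 endothelial and blood genes had 86 falls (27.9%) and 95 rises (30.8%), beside 31.9% and 16.6% among all regions, and their summed values were 27837 and 40021 in OE SP, against 26134 and 25853 in WT SP. The 264 regions of 12 lateral and cardiac mesoderm genes had 144 falls (54.5%) and 24 rises (9.09%), with sums of 18919 and 27115 in OE SP, against 37367 and 36059 in WT SP. In WT SP against WT DP, the endothelial and blood regions had 17 falls (5.52%) and 44 rises (14.3%), with sums of 26134 and 25853 in WT SP, against 20768 and 21136 in WT DP, while the lateral and cardiac regions had 12 falls (4.55%) and 9 rises (3.41%), beside 8.12% and 6.2% of all regions. In KO DP against WT DP, the endothelial and blood regions had 7 falls (2.27%) and 1 rise (0.325%). The lateral and cardiac regions had 7 falls (2.65%) and 3 rises (1.14%), beside 2.21% and 1.72% among all regions. The share of rises was thus below that of all regions in both lists. It was also below it for intermediate mesoderm (1.32%), endoderm (0.98%), pluripotency (0.943%) and neuroectoderm (0%) genes. None of these differences was tested. No listed gene was at 0 in any library. The part of other cell types in the members' values was not tested.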

How the data were processed

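Accessibility was taken from 1 deposited table of signal, normalized reads per region by the authors, with a column for each of the 8 libraries; the file's name calls them normalized counts. The submitters' processing notes list mm10 with Bowtie2, MACS2 and DiffBind 3.14.1, without their roles. For the scaling factors and any Tn5 shift, the sources used here give no method. A different scaling moves the balance of rises and falls. In each library 100% of values were whole multiples of a step (tolerance 0.01 reads), so whole reads were recovered.

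Regions were assigned to RefSeq protein-coding spans (GRCm38.p6). limma 3.58.1 (R 4.3.3) was fitted to log2(value + 5) over the 167573 regions (99.2%) whose mean reached 10, as 4 group means with a trended empirical Bayes prior and 4 residual degrees of freedom, with two-sided Benjamini-Hochberg adjusted p over all regions. edgeR 4.0.16 and DESeq2 1.42.0 on the recovered reads were alternatives, beside another pseudocount (1), no filter, 2 rescalings, a fit of the compared groups alone, a replicate block, a limit of 10 kb and leaving out each library. The code was tested on simulated data. Chi-square values compare recovered reads between replicates. The members, lists and tests were chosen with earlier results of these data known. The named regions are each gene's highest region, its highest gene-end region and, in each comparison, the call of lowest p in each direction; in the other lists they are up to 2 rises and 2 falls of lowest p. Other regions given were chosen after their values were seen. PCR reads lack molecular identifiers, so counting noise refers to reads and not molecules.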

Additional observations from a re-analysis of the deposited data

How the results depend on the processing

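Counts of falls and rises among the 91 regions differed between fits. Leaving out 1 library gave 6 to 11 falls and 0 to 1 rises in WT SP against WT DP, 0 falls in each fit of KO DP against WT DP, and 23 to 44 falls and 10 to 17 rises in OE SP against WT SP. These fits have fewer samples, and without an OE SP library they hold no replicate spread of OE SP. Fitted alone, the compared groups gave 15 rises and 26 falls in WT SP against WT DP, where all regions had 22.4% rises and 15.5% falls. They gave 5 rises and 21 falls in KO DP against WT DP, where all regions had 8.89% and 13.1%. In OE SP against WT SP they gave fewer calls, 38, all among the 50 of the main fit. All regions then had 13.9% rises and 25% falls, beside 16.6% and 31.9% in the main fit. DESeq2 gave 1 rise in WT SP against WT DP (2.78% of all regions), 1 fall in KO DP against WT DP (0.819%) and 19 falls in OE SP against WT SP (17.2%). In KO DP against WT DP, edgeR gave 2 rises and 6 falls (3.62% and 2.78% of all regions), and scaling on the 10000 highest regions gave 2 rises (3.68%). That scaling moved the median of all regions in WT SP against WT DP to -0.11, and all regions then had 22305 falls and 6724 rises, against 13600 and 10395 as deposited, while the members had 24 falls and 4 rises. Within 10 kb, OE SP against WT SP had 20 falls and 4 rises among fewer regions. The cause of the other differences was not tested. With the replicate block the members had 16 falls and 2 rises in WT SP against WT DP, where all regions had 7.9% and 6.19%. They had 2 falls in KO DP against WT DP (1.85% of all regions). In OE SP against WT SP they had 33 falls and 15 rises, where all regions had 31.4% and 16.4%. The numbers do not pair the samples, since deviations of same-numbered libraries correlated at -0.004 to 0.056. Among the 29 named regions, 4 of 11 calls in WT SP against WT DP, 0 of 3 in KO DP against WT DP and 12 of 18 in OE SP against WT SP passed under all alternatives, and none changed sign. With 2 libraries a group and a median of 27 to 42 reads per region, small changes in weak regions are not detectable at this depth.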

Other observations

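Among the other lineage lists, the 152 regions of 8 intermediate mesoderm genes had 24 falls (15.8%) and 4 rises (2.63%) in WT SP against WT DP, beside 8.12% and 6.2% among all regions. At Pax8, a kidney paired-box factor, chr2:24466979-24467379 had 50.9 and 59.5 normalized reads in WT SP, against 194 and 191 in WT DP (log2 change -1.72, SE 0.19, limma adjusted p = 0.000355). Lhx1, a homeobox factor of the intermediate mesoderm, had a region inside the gene that rose. It had 209 and 199 in WT SP, against 63.1 and 89.8 in WT DP (log2 change 1.38, SE 0.20, adjusted p = 0.00131). Another Lhx1 region, 77061 bases outside the gene span, fell by 1.42 on the log2 scale (SE 0.18, adjusted p = 0.000666). In OE SP against WT SP the 152 regions had 64 falls (42.1%) and 13 rises (8.55%), beside 31.9% and 16.6% among all regions.

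At Isl1, a homeobox factor of cardiac progenitors, chr13:116342275-116342675 had 181 and 151 in KO DP, against 31.1 and 27.8 in WT DP (log2 change 2.31, SE 0.22, limma adjusted p = 0.000139). At Hand1, a bHLH factor of lateral mesoderm, chr11:57876144-57876544 had 57.9 and 45.2 in KO DP, against 282 and 249.7 in WT DP (log2 change -2.27, SE 0.25, adjusted p = 0.000371). At Tbx5, a T-box factor of heart and forelimb, chr5:119973068-119973468 had 9.48 and 19.7 in OE SP, against 144 and 199 in WT SP (log2 change -3.20, SE 0.26, adjusted p = 6.61e-06). At Gata6, of the same list, chr18:11006443-11006843 rose, with 168 and 137 in OE SP, against 18.3 and 10.9 in WT SP (log2 change 3.02, SE 0.28, adjusted p = 1.16e-05). Of the 12 lateral and cardiac genes, 10 had both rises and falls in OE SP against WT SP and 2 had falls only. The regions given for Isl1, Hand1, Tbx5 and Gata6 lay 32787, 44197, 88048 and 45867 bases outside the gene spans. The regions of neuroectoderm, endoderm and pluripotency genes had 30.1%, 36.3% and 32.1% falls and 12.6%, 12.7% and 21.7% rises in OE SP against WT SP, out of 103, 102 and 106 tested, beside 31.9% and 16.6% among all regions.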
